A study of Mus musculus with 12 samples.

Results

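The 29 genes described here build cholesterol and fatty acids or control that synthesis. They were taken by symbol from a table of 55421 genes, where each occurred once, and all 29 were among the 14460 genes tested. By role, 18 encode enzymes of sterol synthesis, 6 encode enzymes of fatty acid synthesis and desaturation, 4 encode parts of the sterol-sensing control system, and Stard4 encodes a sterol transfer protein. RNA was sequenced from OT-I cells, CD8 T cells with a transgenic receptor for an ovalbumin peptide, that were either Rroid2 KO or Rroid2 WT. All had been transferred into host mice given Listeria monocytogenes that expressed ovalbumin, and were recovered from the spleen by sorting. Short-lived effector cells (SLEC) were taken on day 14 and on day 7 after infection and memory precursor effector cells (MPEC) on day 14, which gives 6 groups of 2 libraries: KO MPEC day 14, KO SLEC day 14, KO SLEC day 7, WT MPEC day 14, WT SLEC day 14 and WT SLEC day 7. The sorting gates, the extent of the Rroid2 deletion, the age of the mice and whether the libraries of a group came from separate animals are not stated in the sources used here, so p-values measure the spread between libraries, which may be technical.

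Sterol synthesis starts from acetyl-CoA and runs through the mevalonate pathway to isoprenoid units, squalene, lanosterol and cholesterol, while fatty acid synthesis uses the same acetyl-CoA to make palmitate, which is then elongated and desaturated. The SREBP transcription factors, encoded by Srebf1 and Srebf2, switch on these genes when sterols are low; SCAP escorts them out of the endoplasmic reticulum and INSIG proteins hold them back. Dividing T cells need new membrane, and activated CD8 T cells are known to raise SREBP activity and lipid synthesis as they expand.

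Total counts per library ran from 7603551 to 14026594, so that 3 counts equalled 0.19 to 0.412 CPM (a gene's counts scaled to a common library size), a limit that covers counting error only. No gene bearing the symbol Rroid2 was found in the table, so the loss of the targeted RNA was not checked. Cd8a and Cd4 matched the labelled cell type: Cd8a lay between 721 and 1124 CPM in every library and Cd4 at or below 1.057 CPM. Of the other genes listed for CD4 T cells, Foxp3 lay at or below 0.6358 CPM. Cd40lg, at 4.463 to 20.89 CPM, and Zbtb7b, at 29.99 to 67.18 CPM, were present in every library. Klrg1, the surface marker of SLEC, lay between 1.335 and 3.74 CPM in the 4 MPEC libraries and between 132.4 and 321.5 CPM in the 8 SLEC libraries. The summed level of 17 B cell genes was 479 and 1856 CPM for WT SLEC on day 14 and between 26.3 and 317 CPM in the other libraries. Lists of monocyte and neutrophil genes also had their highest sums in WT SLEC day 14 (67.6 and 53.8 CPM, and 61.9 and 6.14 CPM). A list of 20 cell division genes summed to 1470 and 4210 CPM in the libraries labelled WT SLEC day 7, so these replicates stood apart from each other.

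Measured per kilobase of exon, the median level over the 12 libraries was highest for Acly, which makes cytosolic acetyl-CoA from citrate, at 40.95 CPM per kilobase. Srebf2 followed at 17.6, Fasn (fatty acid synthase) at 12.3, Ebp (the sterol isomerase) at 11.4 and Srebf1 at 11.01 CPM per kilobase. The lowest were Fdps at 0.233, Idi1 at 0.21 and Scd1 at 0.102 CPM per kilobase. Fdps and Idi1, which join and interconvert isoprenoid units, had no more than 30 and 25 counts in any library. Between 25.3% and 39.1% of the 50-base words of Idi1, Fdps, Fdft1, Acaca and Acat2 also occurred in other genes, such as Acat3 and Tcp1 for Acat2, so the counts of these members are uncertain.

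Day 14 was compared with day 7 in SLEC of each genotype, which asks how the module differs between the later contraction phase and the peak of the response. Most sterol synthesis genes had lower values on day 14, while among the fatty acid genes Fasn and Acaca had higher values. Summed over the 18 sterol genes, the KO SLEC libraries held 199.1 and 182.4 CPM on day 14, against 299.8 and 255.2 CPM on day 7. The WT SLEC libraries held 198 and 188 CPM on day 14, against 237.1 and 333.7 CPM on day 7. In each genotype both day 14 sums lay under both day 7 sums. In bulk RNA, fewer cells expressing a gene and less of its RNA per cell cannot be told apart. Other signals moved with the day. Mitochondrial genes took 10.9% and 10.35% of the counts in KO SLEC day 14, against 18.7% and 20.55% on day 7, and 9.69% and 8.65% in WT SLEC day 14, against 19.1% and 13.3% on day 7. With these genes left out, 18 of the 18 sterol genes were negative in KO and 16 in WT, with median log2 changes of -0.62 and -0.50. The 7 erythroid genes tested summed to 12.75 and 0 CPM in KO SLEC day 14, against 101.2 and 24.8 CPM on day 7, and 4 of the 7 fell. In WT SLEC they summed to 26.6 and 8.61 CPM on day 14, against 3.82 and 19.8 CPM on day 7, with 0 called. The part of erythroid RNA in the day difference was not tested.

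A gene counts as called where its p from the edgeR quasi-likelihood test, after Benjamini-Hochberg adjustment, was under 0.05. In KO SLEC, 5 of the 29 genes were called, beside 17.2% of all genes tested: Fasn and Acaca rose, as did 7.7% of all genes, and Mvd, Cyp51 and Ebp fell, as did 9.5%. In WT SLEC 4 of 29 were called, beside 9.94% of all genes: Scd1 rose, as did 4.69%, and Hmgcs1, Mvd and Ebp fell, as did 5.25%. These shares are close to the background, so the number of calls does not set the 29 genes apart. The median log2 change of the 18 sterol genes was -0.62 in KO and -0.50 in WT, against -0.01 and 0.01 for all genes tested, and 17 and 16 of the 18 were negative. Both day 14 libraries lay below both day 7 libraries for 14 of the 29 genes in KO and 8 in WT (29% and 24.3% of all genes), and above them for 5 and 4 (28.4% and 27.1%). In both genotypes at once 6 were lower and 3 higher in this way, beside 15.5% and 14.7% of all genes. Of the 6 fatty acid genes 2 were called in KO and 1, Scd1, in WT; the medians over the 6 were 0.56 and 0.20. The day effects in KO and WT share no library; 26 of the 29 genes (89.7%) had the same sign in both, as did 70.9% of all genes. The sterol direction in WT rests largely on WT SLEC day 7 replicate 2: without it 11 of 18 sterol genes were negative, with a median of -0.16, and without replicate 1 all 18 were, with a median of -0.68. In KO, leaving out KO SLEC day 7 replicate 1 left 14 of 18 negative, with a median of -0.42.

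**Figure D1:**
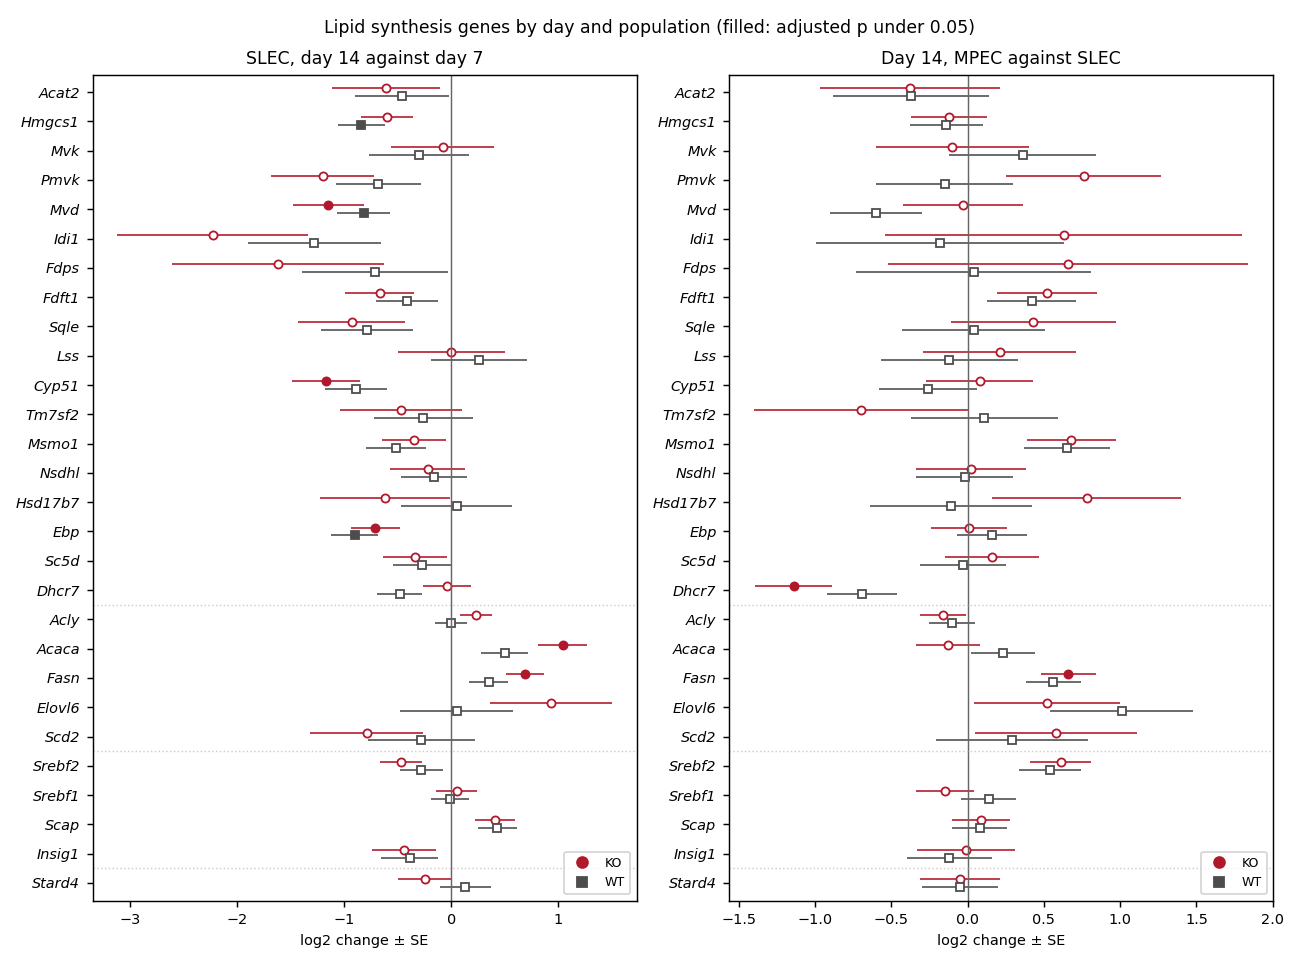
Log2 change ± SE of 28 of the 29 genes, ordered from sterol synthesis at the top through fatty acid synthesis and control genes to Stard4, on day 14 against day 7 in SLEC (left) and in MPEC against SLEC on day 14 (right), with KO as circles and WT as squares (n = 2 libraries per group). Filled symbols have an adjusted p under 0.05; Scd1, with changes up to 5.23, is not drawn and is given in the text. On the left most sterol genes sit below 0 in both genotypes and Fasn and Acaca above it, and on the right Dhcr7 sits below 0 and Fasn and Srebf2 above it.

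The 4 sterol genes that fell in at least 1 genotype are shown with the stretch around their start, from 250 bases before to 50 after, as RefSeq gives it for GRCm38.p6, and Fasn and Acaca are shown as the genes that rose in KO. Each is written 5′ to 3′ on the strand of the gene. Capitals mark, on either strand, the sterol regulatory element TCACNCCAC that SREBP binds, the CCAAT box of NF-Y and the GC box GGGCGG of Sp1-type factors, where N is any base; CCAAT matches may overlap each other.
Hmgcs1, chr13:119690101-119690400, plus strand: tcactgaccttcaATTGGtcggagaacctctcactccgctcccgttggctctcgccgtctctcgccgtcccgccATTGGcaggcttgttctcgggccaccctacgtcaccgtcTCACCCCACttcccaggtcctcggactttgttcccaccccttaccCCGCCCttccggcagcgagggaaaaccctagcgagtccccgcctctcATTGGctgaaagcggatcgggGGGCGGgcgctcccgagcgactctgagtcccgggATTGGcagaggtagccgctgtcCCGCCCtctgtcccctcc
Mvd, chr8:122443373-122443672, minus strand: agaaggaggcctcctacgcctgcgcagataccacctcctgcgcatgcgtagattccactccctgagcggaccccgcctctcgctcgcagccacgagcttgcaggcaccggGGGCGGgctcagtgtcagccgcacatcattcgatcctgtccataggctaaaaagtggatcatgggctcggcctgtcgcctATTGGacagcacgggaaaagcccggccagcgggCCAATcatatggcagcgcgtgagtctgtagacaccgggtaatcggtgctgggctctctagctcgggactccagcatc
Cyp51, chr5:4104648-4104947, minus strand: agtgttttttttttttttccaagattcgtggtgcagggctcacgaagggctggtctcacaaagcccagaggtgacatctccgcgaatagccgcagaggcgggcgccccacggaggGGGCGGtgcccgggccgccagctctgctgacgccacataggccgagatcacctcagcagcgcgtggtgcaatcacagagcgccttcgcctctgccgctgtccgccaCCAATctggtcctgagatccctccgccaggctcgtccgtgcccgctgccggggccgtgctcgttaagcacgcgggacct
Ebp, chrX:8193463-8193762, minus strand: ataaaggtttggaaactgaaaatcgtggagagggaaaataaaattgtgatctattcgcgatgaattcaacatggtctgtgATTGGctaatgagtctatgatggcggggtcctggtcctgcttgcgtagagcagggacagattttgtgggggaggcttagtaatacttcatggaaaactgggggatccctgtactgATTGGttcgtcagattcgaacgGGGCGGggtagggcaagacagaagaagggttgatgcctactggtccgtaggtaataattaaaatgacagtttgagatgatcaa
Fasn, chr11:120824498-120824797, minus strand: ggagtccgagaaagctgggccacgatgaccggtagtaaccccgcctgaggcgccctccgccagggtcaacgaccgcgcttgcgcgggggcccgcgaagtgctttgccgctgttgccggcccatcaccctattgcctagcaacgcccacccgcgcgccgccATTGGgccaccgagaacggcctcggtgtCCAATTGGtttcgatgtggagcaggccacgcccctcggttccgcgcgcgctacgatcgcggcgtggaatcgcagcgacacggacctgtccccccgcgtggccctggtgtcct
Acaca, chr11:84195188-84195487, plus strand: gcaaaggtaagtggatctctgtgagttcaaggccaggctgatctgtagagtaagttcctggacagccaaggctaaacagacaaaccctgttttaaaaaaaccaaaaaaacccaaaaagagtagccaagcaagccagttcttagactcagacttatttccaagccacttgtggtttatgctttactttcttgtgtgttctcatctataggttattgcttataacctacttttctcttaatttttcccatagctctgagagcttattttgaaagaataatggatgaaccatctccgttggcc
The Hmgcs1 window held 1 sterol regulatory element, 4 CCAAT boxes and 3 GC boxes. Mvd and Ebp held 2 CCAAT boxes and 1 GC box each, Cyp51 held 1 of each, and Fasn held 3 CCAAT boxes and no GC box of these letters. The Acaca window lies at an annotated start inside the gene, whose first base is 84129672 on the same chromosome. It held none of the searched motifs, and the stretch around that first base was not searched. Of the 29 genes 23 had such a window; none was matched for Fdps, Fdft1, Sqle, Scd1, Scd2 and Stard4. CCAAT occurred in 19 of the 23, and in 41.1% of 27025 gene windows and 43.2% of those of the tested genes. GGGCGG also occurred in 19 of 23, against 38.2% and 67.7%, and the sterol regulatory element in 1 of 23, against 1.44% and 1.39%. These matches describe letters in a window and are not evidence of binding.

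Hmgcs1 encodes the cytosolic HMG-CoA synthase at the entry of the mevalonate pathway. In KO SLEC it had 32.3 and 29 CPM on day 14, against 53.8 and 38.6 CPM on day 7, and in WT SLEC 27.2 and 27.2 CPM on day 14, against 36.95 and 60.7 CPM on day 7. Every day 14 library was under every day 7 library. The log2 change was -0.60 ± 0.24 (SE, adjusted p = 0.0918) in KO and -0.84 ± 0.22 (adjusted p = 0.0225) in WT. The fall in WT was lost without WT SLEC day 7 replicate 2, where the change was -0.43 (adjusted p = 0.32), and without either WT SLEC day 14 library (adjusted p = 0.13 and 0.16). Gm48342, on the opposite strand, overlaps 12.1% of the Hmgcs1 exon bases, and the sources used here do not give the strand setting of the counting. This limit also holds for other members, with opposite-strand overlaps of 18.3% for Fdft1 and 13.2% for Scap. On the same strand, other genes overlap 26.7% of the Fdps and 12.1% of the Tm7sf2 exon bases.

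Mvd encodes mevalonate diphosphate decarboxylase, which makes the isoprenoid building block, and Pmvk the kinase before it. In KO SLEC, Mvd had 5.57 and 5.91 CPM on day 14, against 12.6 and 12.8 CPM on day 7. In WT SLEC it had 10.45 and 10.6 CPM on day 14, against 20.6 and 16.6 CPM on day 7. The days did not overlap in either genotype, and the replicates lay close together in 3 of the 4 groups. Mvd fell by 1.15 ± 0.33 on the log2 scale in KO (adjusted p = 0.0234) and by 0.82 ± 0.25 in WT (adjusted p = 0.0476). The WT call stood just under the threshold: it was lost whichever of the 12 libraries was left out, at adjusted p up to 0.25, while the change stayed between -0.95 and -0.66. The KO call was lost without each of its own 4 libraries (adjusted p up to 0.15), with changes of -1.20 to -1.10. Pmvk had 5.06 and 5.22 CPM in KO SLEC day 14, against 13.8 and 9.49 CPM on day 7, and 5.96 and 8.23 CPM in WT SLEC day 14, against 5.64 and 17.1 CPM on day 7. Its groups separated in KO and overlapped in WT, and neither change was called (-1.20 ± 0.48 and -0.68 ± 0.40).

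Idi1, the isomerase that balances the 2 isoprenoid units, was near the detection limit. It had 0.405 and 0.275 CPM in KO SLEC day 14, against 1.71 and 1.63 CPM on day 7, and 0.957 and 0.506 CPM in WT SLEC day 14, against 1.59 and 1.92 CPM on day 7. All day 14 values were below all day 7 values, and the changes of -2.23 ± 0.89 and -1.28 ± 0.62 were not called (adjusted p = 0.0908 and 0.218).

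Cyp51 encodes lanosterol demethylase and Ebp the isomerase further along toward cholesterol. Cyp51 had 11.6 and 11.5 CPM in KO SLEC day 14, against 28.1 and 23.9 CPM on day 7. In WT SLEC it had 13.0 and 11.96 CPM on day 14, against 15.2 and 31.1 CPM on day 7. The days did not overlap, but WT SLEC day 7 replicate 1 lay close to the day 14 libraries. Cyp51 fell by 1.17 ± 0.32 on the log2 scale in KO (adjusted p = 0.0169); the change of -0.89 ± 0.29 in WT missed the threshold (adjusted p = 0.0578). The KO call was lost without KO SLEC day 7 replicate 1 (adjusted p = 0.085) and without either KO SLEC day 14 library (adjusted p = 0.1 each), and a WT call appeared without WT SLEC day 7 replicate 1 (-1.32, adjusted p = 0.0014). Ebp had 26.7 and 19.8 CPM in KO SLEC day 14, against 38.1 and 38.8 CPM on day 7, and 24.4 and 18.4 CPM in WT SLEC day 14, against 39.3 and 40.2 CPM on day 7. All 4 day 7 libraries, at 38.1 to 40.2 CPM, were above all 4 of day 14. Ebp fell by 0.71 ± 0.23 in KO (adjusted p = 0.0456) and by 0.90 ± 0.22 in WT (adjusted p = 0.0146), both on the log2 scale. The KO call was at the edge and was lost in 10 of the 12 fits without a library (adjusted p up to 0.31), and the WT call without WT SLEC day 14 replicate 2 (-0.70, adjusted p = 0.22).

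Among the other 12 sterol genes, none was called in either genotype. Their medians over the 12 libraries ran from 0.98 CPM for Fdps to 31.3 CPM for Dhcr7, the reductase of the last step. Fdft1 and Sqle, which make squalene and its epoxide in that order, had changes of -0.67 ± 0.32 and -0.93 ± 0.50 in KO and of -0.41 ± 0.29 and -0.79 ± 0.43 in WT. Lss, the cyclase that follows, did not go below 0, at 0 ± 0.50 in KO and 0.26 ± 0.45 in WT, and Hsd17b7, a ketosteroid reductase, was at 0.05 ± 0.52 in WT. Over all libraries Fdft1 spanned 9.51 to 19.5 CPM, Sqle 3.16 to 18.2, Lss 6.84 to 21.35, Sc5d 11.97 to 25.0, Nsdhl 7.19 to 12.9 and Msmo1 8.61 to 20.5 CPM. Mvk spanned 2.34 to 6.37 CPM, Acat2 2.11 to 6.596, Hsd17b7 2.04 to 6.25, Tm7sf2 0.575 to 4.46 and Fdps 0.405 to 2.23 CPM.

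Of the fatty acid synthesis genes, Fasn and Acaca rose in KO. Fasn had 133.6 and 135.5 CPM in KO SLEC day 14, against 91.2 and 75 CPM on day 7. In WT SLEC it had 136.9 and 124 CPM on day 14, against 82.6 and 121.6 CPM on day 7. The day 14 libraries of the genotypes lay together above all day 7 libraries. Fasn rose by 0.69 ± 0.18 in KO (adjusted p = 0.0157), a 1.61-fold level, and the change of 0.35 ± 0.18 in WT was not called (adjusted p = 0.247). The KO call was lost without KO SLEC day 7 replicate 2 (0.56, adjusted p = 0.13) and without either KO SLEC day 14 library (adjusted p = 0.071 and 0.1). Acaca encodes acetyl-CoA carboxylase, which commits acetyl-CoA to fatty acids. It had 33.3 and 35.7 CPM in KO SLEC day 14, against 19.0 and 14.2 CPM on day 7, and 25.4 and 24.2 CPM in WT SLEC day 14, against 15.3 and 19.6 CPM on day 7. Both genotypes separated by day. Acaca rose by 1.04 ± 0.23 in KO (adjusted p = 0.00436), which held without each library in turn, and the change of 0.50 ± 0.22 in WT was not called (adjusted p = 0.167).

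The remaining fatty acid genes were less even. Acly lay between 189.6 and 254.4 CPM in the 12 libraries, with day changes of 0.23 ± 0.15 in KO and 0 ± 0.15 in WT. Elovl6, an elongase, lay between 1.19 and 8.82 CPM and was not called in either genotype. Scd2, a desaturase of fatty acids, had 34.3 and 31.7 CPM in KO SLEC day 14, against 65.45 and 48.7 CPM on day 7. In WT SLEC it had 33.8 and 45.8 CPM on day 14, against 20.4 and 76.3 CPM on day 7. The WT day 7 replicates lay on opposite sides of the day 14 pair: the WT change was 0.98 (adjusted p = 0.033) without replicate 2 and -0.93 (adjusted p = 0.0086) without replicate 1, against -0.28 ± 0.50 with both. Scd1 is described with the B cell genes further on.

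Of the control genes, Srebf1 did not differ by day beyond its error. It had 57.6 and 79.2 CPM in KO SLEC day 14, against 68.7 and 62.45 CPM on day 7, and 61.6 and 57.65 CPM in WT SLEC day 14, against 55.6 and 64.7 CPM on day 7, with overlapping groups and changes of 0.05 ± 0.19 and -0.01 ± 0.18. Srebf2 had 89.85 and 92.6 CPM in KO SLEC day 14, against 131.1 and 121.5 CPM on day 7. In WT SLEC it had 102.8 and 83.5 CPM on day 14, against 83.4 and 142.8 CPM on day 7. It separated by day in KO only and was not called (-0.47 ± 0.20, adjusted p = 0.118, and -0.28 ± 0.20, adjusted p = 0.426); the difference between these day effects was -0.19 ± 0.28 (adjusted p = 0.917). Scap had 50.7 and 57.85 CPM in KO SLEC day 14, against 41.1 and 40.5 CPM on day 7, and 66.98 and 56 CPM in WT SLEC day 14, against 39.7 and 51.7 CPM on day 7. Its day 14 libraries were higher in each genotype, at 0.41 ± 0.19 and 0.43 ± 0.18 (adjusted p = 0.15 in each). Insig1, itself a target of SREBP, had 12.45 and 12.6 CPM in KO SLEC day 14, against 17.3 and 16.7 CPM on day 7, and 13.9 and 14.9 CPM in WT SLEC day 14, against 23.05 and 14.7 CPM on day 7. The WT groups overlapped, and the changes were -0.44 ± 0.30 and -0.39 ± 0.27. Stard4, which moves sterol between membranes, lay between 18.9 and 38.45 CPM and was not called.

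**Figure D2:**
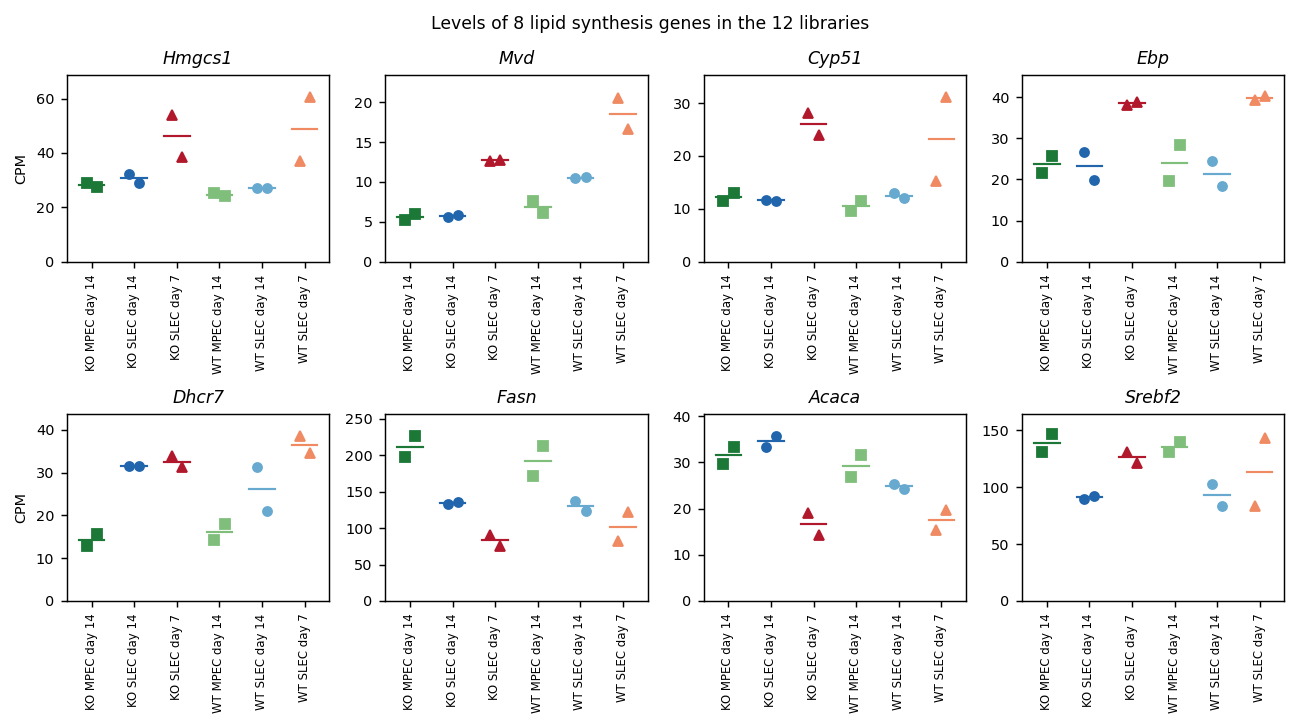
CPM of 8 lipid synthesis genes in each library (linear axes from 0), with the points of a group being its 2 libraries and the line their mean. Hmgcs1, Mvd, Cyp51 and Ebp were lower and Fasn and Acaca higher in SLEC on day 14 than on day 7 in each genotype, and Dhcr7 was lower and Fasn and Srebf2 higher in MPEC than in SLEC on day 14.

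Averaging the day effects of KO and WT, a comparison added after the data had been seen, called 9 of the 29 genes, beside 25.1% of all genes, 3 higher (11.4%) and 6 lower (13.7%). Hmgcs1 fell by 0.72 ± 0.16 (adjusted p = 0.00336), Pmvk by 0.94 ± 0.31 (0.0341), Mvd by 0.98 ± 0.21 (0.00199), Idi1 by 1.76 ± 0.54 (0.0213), Cyp51 by 1.03 ± 0.21 (0.00173) and Ebp by 0.80 ± 0.16 (0.0013), all log2 changes with their adjusted p. Scap rose by 0.42 ± 0.13 (adjusted p = 0.0246), Fasn by 0.52 ± 0.13 (0.00618) and Acaca by 0.77 ± 0.16 (0.0015). Hmgcs1, Mvd, Cyp51, Ebp, Fasn and Acaca kept this call without each of the 12 libraries in turn. Pmvk lost it without 5 of the 12, most without WT SLEC day 7 replicate 2 (-0.43, adjusted p = 0.33), and Idi1 and Scap without 5 each (adjusted p up to 0.096 and 0.12).

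Cell division genes moved with the sterol genes. The list of 20 cell division genes summed to 597 and 662.5 CPM in KO SLEC day 14, against 3341 and 3056 CPM on day 7, and to 653 and 676.5 CPM in WT SLEC day 14, against 1470 and 4210 CPM on day 7. All 20 were detected, and the 8 day 14 libraries spanned 586 to 676.5 CPM. The WT SLEC day 7 library with the lower division sum also had the lower sterol sum. Every day 7 library was above every day 14 library in this sum, so cell division and day cannot be told apart in these libraries. A fit with the sum as a term rests on the spread among the 4 day 7 libraries: the median SE of the 18 sterol genes was 0.74 in KO and 0.63 in WT, against 0.41 and 0.36 without the term. In that fit 1.36% of all genes were called in KO and 1.68% in WT, and 0 of the 18 sterol genes in either. The sterol medians were 0.38 and 0.25, and nothing is read from their sign. Fasn was called in KO with the term (1.60 ± 0.34, adjusted p = 0.0249). Scd2 was also called, in KO (2.09 ± 0.49, adjusted p = 0.039) and in WT (2.33 ± 0.44, adjusted p = 0.01). Without the term its changes were negative, at -0.79 and -0.28, and not called. Acaca lost its calls in KO (1.67 ± 0.51, adjusted p = 0.11) and in the mean of the genotypes (1.35 ± 0.45, adjusted p = 0.13). No direction is read from the calls in this fit.

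**Figure D3:**
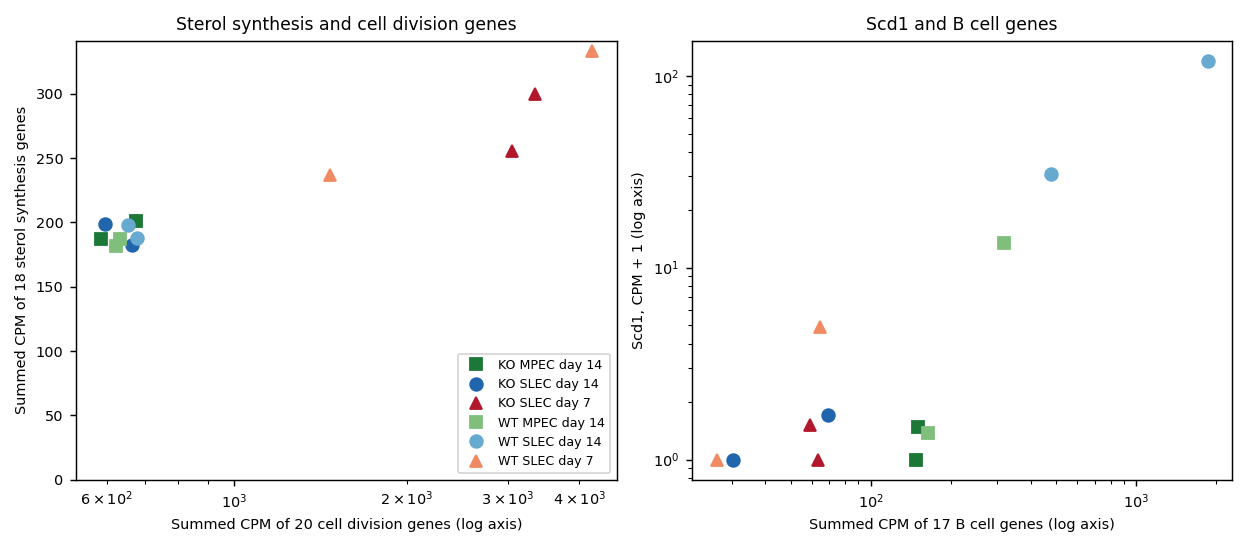
Left, summed CPM of the 18 sterol synthesis genes against summed CPM of 20 cell division genes (log axis) in the 12 libraries. Right, Scd1 as CPM + 1 against summed CPM of 17 B cell genes, both on log axes. The 8 day 14 libraries sit together at sterol sums of 181 to 201 CPM and the day 7 libraries above them, and on the right the WT SLEC day 14 libraries hold the highest Scd1 and the highest B cell sums.

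MPEC were compared with SLEC on day 14 in each genotype, which asks how the module differs between precursors of memory cells and terminal effectors at the same time. Fasn and Srebf2 were higher and Dhcr7 lower in MPEC, while the sterol genes as a list differed little. In KO 2 of 29 genes were called, beside 5.11% of all genes: Fasn rose, as did 2.9%, and Dhcr7 fell, as did 2.21%. In WT 1 of 29 was called, beside 7.96% of all genes, with 0 higher (3.66%) and 1 lower (4.3%), and this was Scd1. The sterol sums were 187.1 and 201.4 CPM in KO MPEC, against 199.1 and 182.4 CPM in KO SLEC, and 181.4 and 187.2 CPM in WT MPEC, against 198 and 188 CPM in WT SLEC. These sums overlapped in KO and nearly met in WT. The median log2 change of the 18 sterol genes was 0.12 in KO and -0.07 in WT, against 0 for all genes in each, and 18 of the 29 genes (62.1%) had the same sign in both genotypes, as did 66.7% of all genes.

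Fasn had 197.8 and 226.1 CPM in KO MPEC, against 133.6 and 135.5 CPM in KO SLEC. In WT it had 172.1 and 212.9 CPM in MPEC, against 136.9 and 124 CPM in SLEC. All MPEC libraries were above all SLEC libraries, and the MPEC libraries had the highest Fasn values of each genotype. Fasn rose by 0.66 ± 0.18 in KO (adjusted p = 0.041), a 1.58-fold level; the change of 0.56 ± 0.18 in WT missed the threshold (adjusted p = 0.0613). The KO call was lost in 8 of 12 fits without a library (adjusted p up to 0.28), with changes between 0.55 and 0.75.

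Dhcr7 encodes the enzyme that completes cholesterol. It had 12.9 and 15.7 CPM in KO MPEC, against 31.6 and 31.6 CPM in KO SLEC, and 14.35 and 18.1 CPM in WT MPEC, against 31.4 and 21.1 CPM in WT SLEC. The populations separated in each genotype. Dhcr7 fell by 1.14 ± 0.25 in KO (adjusted p = 0.00995), to 0.455 of the SLEC level, and changed by -0.69 ± 0.23 in WT (adjusted p = 0.08). In KO the call was lost without KO MPEC replicate 1 (-1.01, adjusted p = 0.12) and without either KO SLEC day 14 library (adjusted p = 0.065 and 0.073).

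Srebf2 had 131.1 and 146.3 CPM in KO MPEC, against 89.85 and 92.6 CPM in KO SLEC, and 131.1 and 139.6 CPM in WT MPEC, against 102.8 and 83.5 CPM in WT SLEC. It separated in each genotype, and the changes of 0.61 ± 0.20 (adjusted p = 0.101) and 0.54 ± 0.20 (adjusted p = 0.108) were not called. Msmo1, which removes methyl groups from the sterol ring, had 16.8 and 20.5 CPM in KO MPEC, against 10.9 and 12.6 CPM in KO SLEC, and 14.7 and 15.2 CPM in WT MPEC, against 8.61 and 10.4 CPM in WT SLEC. Its populations also separated, with changes of 0.68 ± 0.29 and 0.65 ± 0.28 that were not called. Both MPEC libraries were above both SLEC libraries for 10 of the 29 genes in KO and 7 in WT (23.5% and 28.2% of all genes), and below them for 2 and 5 (23.2% and 29.1%). Of the 29 genes, 5 were higher in MPEC without overlap in both genotypes and 2 were lower, beside 13.6% and 12.8% of all genes. Averaged over the genotypes, again a comparison added after the data had been seen, 4 of 29 genes were called, beside 13.1% of all genes, 3 higher (7.14%) and 1 lower (5.99%): Dhcr7 fell by 0.92 ± 0.17 (adjusted p = 0.00117), and Fasn (0.61 ± 0.13, 0.00287), Srebf2 (0.57 ± 0.14, 0.00974) and Msmo1 (0.66 ± 0.20, 0.0358) rose. Dhcr7 and Fasn kept these calls without each library in turn; Srebf2 lost its call without WT SLEC day 14 replicate 2 or KO MPEC replicate 2 (adjusted p = 0.066 and 0.053), and Msmo1 in 8 of 12 fits (adjusted p up to 0.15).

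The other genes given by library were not called in MPEC against SLEC, apart from Scd1 in WT. Hmgcs1 had 28.95 and 27.5 CPM in KO MPEC and 25.15 and 24.1 CPM in WT MPEC, with changes against SLEC of -0.12 ± 0.25 and -0.14 ± 0.24. Mvd had 5.24 and 5.94 CPM in KO MPEC and 7.63 and 6.12 CPM in WT MPEC, with changes of -0.03 ± 0.39 and -0.60 ± 0.30. These changes were within about their own error, apart from Mvd in WT. Cyp51 had 11.4 and 13.0 CPM in KO MPEC and 9.52 and 11.5 CPM in WT MPEC. Ebp had 21.6 and 25.8 CPM in KO MPEC and 19.6 and 28.45 CPM in WT MPEC, and Acaca 29.7 and 33.4 CPM in KO MPEC and 26.7 and 31.6 CPM in WT MPEC. Neither gene separated MPEC from SLEC in both genotypes. Srebf1 had 55.2 and 67.4 CPM in KO MPEC and 58.9 and 73.0 CPM in WT MPEC, Scap 52.9 and 62.3 CPM in KO MPEC and 60.9 and 69.1 CPM in WT MPEC, and Insig1 9.65 and 15.2 CPM in KO MPEC and 14.35 and 11.97 CPM in WT MPEC. Scd2 had 52.15 and 47.2 CPM in KO MPEC and 54 and 43.25 CPM in WT MPEC. Pmvk had 8.32 and 9.01 CPM in KO MPEC and 6.42 and 6.501 CPM in WT MPEC, and Idi1 at most 0.755 CPM in any MPEC library.

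KO was compared with WT in each population, the question of the study. In none did the test call any of the 29 genes: 0 of 29 in SLEC on day 7, beside 0.0277% of all genes, 0 of 29 in SLEC on day 14, beside 0.546%, and 0 of 29 in MPEC, beside 0.0138%. Averaged over the populations it was 0 of 29, beside 0.083%. At an unadjusted p under 0.05 the counts were 1, 3, 0 and 2 of 29, beside 3.37%, 12.5%, 2.46% and 8.26% of all genes; DESeq2 also called 0 of 29 in each. The median log2 change of the 29 was -0.05 in SLEC day 7, -0.09 in SLEC day 14 and 0.03 in MPEC, against 0, -0.02 and -0.01 for all genes. Among the control genes, averaged over the populations, Srebf2 differed by 0.06 ± 0.11, Srebf1 by 0.07 ± 0.11 and Scap by -0.17 ± 0.11. For Fasn it was -0.04 ± 0.10, for Acaca 0.18 ± 0.13, for Ebp 0.03 ± 0.13, for Dhcr7 -0.02 ± 0.13 and for Hmgcs1 0.10 ± 0.14.

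Both KO libraries were above both WT libraries for 4 of the 29 genes in MPEC (14.2% of all genes), 5 in SLEC day 14 (21.9%) and 0 in SLEC day 7 (11.2%), and below them for 3 (15.9%), 8 (25.7%) and 3 (12.2%). Mvd was the 1 gene of the 29 that was lower in KO without overlap in all 3 populations, which 0.754% of all genes were; none was higher in all 3, against 0.553% of all genes. The KO MPEC libraries had 5.24 and 5.94 CPM, against 7.63 and 6.12 CPM in WT MPEC. In SLEC day 14 the KO values were 5.57 and 5.91 CPM, against 10.45 and 10.6 CPM in WT, and in SLEC day 7 they were 12.6 and 12.8 CPM, against 20.6 and 16.6 CPM in WT. The MPEC groups nearly touched and the SLEC groups were well apart. The log2 changes were -0.31 ± 0.35 in MPEC, -0.88 ± 0.33 in SLEC day 14 and -0.55 ± 0.26 in SLEC day 7, and -0.58 ± 0.18 on average, with adjusted p = 1, 0.257, 1 and 0.398, so none was called. Mvd was singled out after its values had been seen.

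When the KO effect in SLEC was compared between day 14 and day 7, 0 of 29 genes were called, beside 0.00692% of all genes, and when it was compared between MPEC and SLEC, 0 of 29, beside 0%. At an unadjusted p under 0.05 both counts were also 0, beside 6.58% and 4.23% of all genes. DESeq2 called 0 of 29 in each as well. In SLEC on day 7 the call of 0 depended on WT SLEC day 7 replicate 2. Without it, Scd2 was called higher in KO (1.51 ± 0.27, adjusted p = 0.00455), and its KO effect differed between days (-1.79 ± 0.34, adjusted p = 0.0164). With both replicates the Scd2 change on day 7 was 0.24 ± 0.49.

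**Figure D4:**
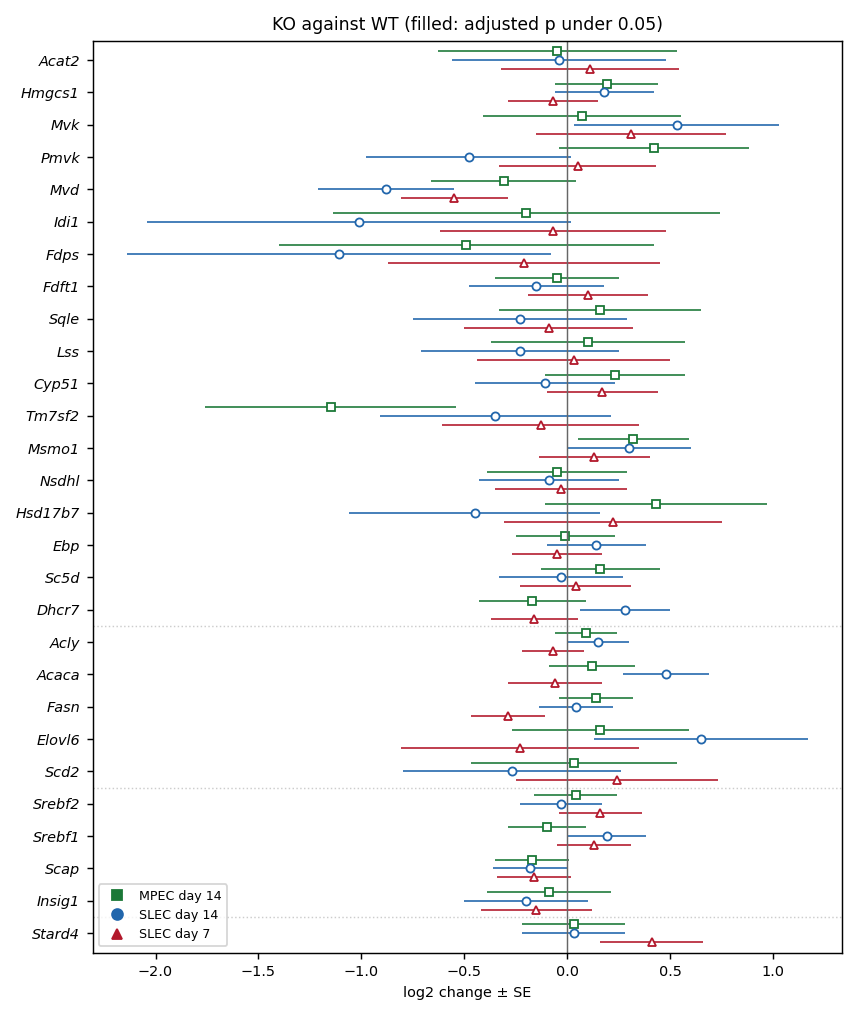
Log2 change ± SE of 28 of the 29 genes in KO against WT in MPEC day 14 (squares), SLEC day 14 (circles) and SLEC day 7 (triangles), with n = 2 libraries per group; Scd1, at -7.48 to -2.68, is not drawn. No symbol is filled, since no gene had an adjusted p under 0.05, and Mvd sits below 0 in all 3 populations.

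Scd1, the other stearoyl-CoA desaturase, was nearly absent from most libraries and high in a few. The KO libraries held 0 and 5 counts (MPEC), 7 and 0 counts (SLEC day 14) and 7 and 0 counts (SLEC day 7). The WT libraries held 164 and 4 counts (MPEC), 405 and 1877 counts (SLEC day 14) and 0 and 51 counts (SLEC day 7). In CPM these were no more than 0.708 in any KO library, 12.4 and 0.377 in WT MPEC, 29.8 and 118.8 in WT SLEC day 14, and 0 and 3.92 in day 7 SLEC of WT. A count of 0 allows up to 0.412 CPM at the lowest depth. Scd1 rose by 5.23 ± 1.03 on day 14 against day 7 in WT SLEC (adjusted p = 0.00891) and fell by 3.45 ± 0.85 in WT MPEC against WT SLEC (adjusted p = 0.0305), log2 changes that rest on libraries far from each other. The day change ranged from 3.90 without WT SLEC day 14 replicate 2 to 12.76 without WT SLEC day 7 replicate 2, was called in all 12 fits without a library, and was not called by DESeq2 (adjusted p = 0.3). The call between populations was lost without WT SLEC day 14 replicate 2 (-2.13, adjusted p = 0.22), without WT MPEC replicate 2 (-2.59, adjusted p = 0.19) and without each of 6 KO libraries (adjusted p up to 0.09). In KO against WT SLEC day 14 the change of -7.48 ± 1.47 missed the threshold (adjusted p = 0.0504); it was called without WT SLEC day 14 replicate 1 (-8.17, adjusted p = 0.0031), without either WT MPEC library (-7.49 each, adjusted p = 0.019 and 0.021) and, at the edge, without WT SLEC day 7 replicate 2 (-7.50, adjusted p = 0.05).

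B cell genes were highest in the libraries highest in Scd1. The summed level of 17 B cell genes was 148.2 and 151.2 CPM in KO MPEC, 69.31 and 30.37 CPM in KO SLEC day 14 and 59.2 and 63.47 CPM in KO SLEC day 7. It was 316.8 and 164.1 CPM in WT MPEC, 478.6 and 1856 CPM in WT SLEC day 14 and 26.31 and 64.43 CPM in WT SLEC day 7. The 2 WT SLEC day 14 libraries held the highest sums and the highest Scd1, with replicate 2 above replicate 1 in both. WT SLEC day 7 replicate 2 had Scd1 over 1 CPM at a sum below those of the KO MPEC libraries. Ighm alone made 94.04 and 112.2 CPM of the KO MPEC sums, against 26.42 CPM in that WT library. Other genes of the list went both ways. Ms4a1 had 3.225 CPM in that WT library, against 0.4107 and 0.3835 CPM in KO MPEC, and Cd22 had 5.913 CPM, against 16.94 and 9.683 CPM. For every 100 CPM of the 17 B cell genes there were 6.23 and 6.40 CPM of Scd1 in WT SLEC day 14, 6.08 in WT SLEC day 7 replicate 2 and 3.91 in WT MPEC replicate 1, and no more than 1.02 in the other libraries. With the B cell sum as a term in the fit the WT day change was -0.45 ± 1.25 (adjusted p = 0.94). The change in WT MPEC against WT SLEC was -0.80 ± 0.65 (adjusted p = 0.65). In that fit 1.31% of all genes were called on WT day 14 against day 7. The B cell sums of these WT groups did not overlap, so the day and B cell RNA cannot be told apart for Scd1 in WT SLEC. The sums did not overlap between WT MPEC and WT SLEC day 14 either, nor between KO and WT SLEC day 14. Population and genotype thus cannot be told apart from B cell RNA for Scd1 in these comparisons. Over the settings that kept all libraries, the Scd1 change in KO against WT SLEC day 14 ran from -7.71 to -2.02. Without Scd1 the fatty acid sum was 426.4 and 412.8 CPM in WT SLEC day 14, against 322.7 and 461.8 CPM in WT SLEC day 7.

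Other genes of lipid metabolism were read from 5 lists. On day 14 against day 7, 7.7% of all genes rose and 9.5% fell in KO, and 4.69% rose and 5.25% fell in WT, with median log2 changes of -0.01 and 0.01. Of 21 tested genes of sterol efflux and uptake control, 3 rose (14.3%) and 2 fell (9.52%) in KO, while 3 rose (14.3%) and 1 fell (4.76%) in WT, with medians of 0.08 and 0.13. The counts of this list are small and do not set it apart from all genes. Abcg1, a sterol exporter and target of the liver X receptors, rose by 1.11 ± 0.29 in KO (adjusted p = 0.019) and 1.32 ± 0.28 in WT (adjusted p = 0.0102). It had 83.9 and 71.2 CPM in KO SLEC day 14, against 22.5 and 50.9 CPM on day 7, and 81.85 and 76.25 CPM in WT SLEC day 14, against 36.2 and 27.03 CPM on day 7. Mylip, which marks lipoprotein receptors for degradation and is another such target, rose by 1.57 ± 0.29 in KO (adjusted p = 0.00436) and 1.02 ± 0.28 in WT (adjusted p = 0.0452). Tspo, an outer mitochondrial membrane protein, fell in WT (-0.62 ± 0.19, adjusted p = 0.0464). Abca1, also an exporter, rose in WT (3.57 ± 0.98, adjusted p = 0.0442), with 5.23 and 18.6 CPM in WT SLEC day 14, against 0.0795 and 1.92 CPM on day 7. In KO SLEC it had 1.72 and 1.92 CPM on day 14, against 1.34 and 0.204 CPM on day 7, and was not called. The WT SLEC day 14 libraries, in the same order, had the B cell sums of 479 and 1856 CPM, and monocyte and macrophage sums of 67.6 and 53.8 CPM, against 23.5 and 34.9 CPM in WT SLEC day 7. Of 9 tested monocyte and macrophage genes 5 rose and 1 fell on day 14 in WT SLEC. The part of these cells' RNA in the Abca1 change was not tested. Nr1d1, a clock repressor in the same list, rose in KO (5.95 ± 1.06, adjusted p = 0.000901), where the day 7 libraries had 0.149 and 0 CPM, and Gramd1a, a sterol transfer protein, fell in KO (-0.96 ± 0.20, adjusted p = 0.00361).

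The next 3 lists had shares called near or below the 17.2% and 9.94% of all genes. Of 16 other SREBP regulators, 3 were called in KO (18.8%) and 1 in WT (6.25%). Lpin1, a phosphatidate phosphatase that restrains SREBP, rose in both, by 1.04 ± 0.19 (adjusted p = 0.00144) and 0.61 ± 0.19 (adjusted p = 0.0487). Gsk3b rose (0.83 ± 0.15, adjusted p = 0.00127) and Fabp5, a fatty acid binding protein, fell (-2.24 ± 0.64, adjusted p = 0.022) in KO. Of 18 other mevalonate and isoprenoid genes, 2 were called in KO (11.1%), Erg28 lower (-0.87 ± 0.24, adjusted p = 0.0187) and Cyb5r3 higher (0.63 ± 0.19, adjusted p = 0.0338), and 0 in WT. Of 28 other fatty acid synthesis genes, 2 fell in KO (7.14%) and 1 in WT (3.57%). Acsl5, which activates fatty acids, fell in each (-0.65 ± 0.16, adjusted p = 0.00983, and -0.59 ± 0.16, adjusted p = 0.0225), and Hsd17b12, of the elongation cycle, fell in KO (-0.86 ± 0.23, adjusted p = 0.0146).

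Of 23 tested genes of fatty acid oxidation, 1 was called higher (4.35%) and 5 lower (21.7%) in KO, beside 7.7% and 9.5% of all genes. In WT 1 was called higher (4.35%) and 6 lower (26.1%), beside 4.69% and 5.25%. The medians of the list were -0.29 and -0.28, against -0.01 and 0.01 for all genes. Acadl, a long-chain acyl-CoA dehydrogenase, fell by 0.96 ± 0.22 in KO (adjusted p = 0.00593) and by 0.85 ± 0.21 in WT (adjusted p = 0.0154). The gene that rose in each was Ppargc1b, a coactivator of mitochondrial genes, by 1.42 ± 0.24 (adjusted p = 0.000787) and 1.38 ± 0.24 (adjusted p = 0.00139).

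In MPEC against SLEC, the background over all tested genes was 2.9% called higher and 2.21% called lower for KO, with 3.66% and 4.3% for WT. With lists of 16 to 28 genes, counts of 0 to 2 in a direction do not set a list apart from these shares. The 28 other fatty acid synthesis genes had 2 called higher (7.14%) and 1 lower (3.57%) in each genotype, and the 23 oxidation genes 0 in KO and 1 higher and 1 lower in WT. Of the 21 sterol efflux genes 1 was higher in KO and 1 lower in WT, of the 16 SREBP regulators 1 was lower in KO and 2 in WT, and of the 18 mevalonate genes 1 was higher in KO and 0 were called in WT. Lpin1 fell in KO (-1.27 ± 0.20, adjusted p = 0.000584) and WT (-1.37 ± 0.20, adjusted p = 0.000287). It had 119.1 and 110.6 CPM in KO MPEC, against 283.3 and 271 CPM in KO SLEC, and 91.5 and 94.1 CPM in WT MPEC, against 253.9 and 226.7 CPM in WT SLEC. The populations lay more than 2-fold apart in each genotype. Acss2, which makes acetyl-CoA from acetate, also fell in KO (-1.25 ± 0.19, adjusted p = 0.00054) and WT (-0.86 ± 0.19, adjusted p = 0.00751), while Hsd17b12 rose in both (0.81 ± 0.23, adjusted p = 0.046, and 0.72 ± 0.21, adjusted p = 0.0461). Elovl5, an elongase, rose in WT (0.99 ± 0.23, adjusted p = 0.011), and Fntb, a subunit of farnesyltransferase, rose in KO (2.19 ± 0.57, adjusted p = 0.0295). In KO against WT, Gramd1a in SLEC day 14 was the 1 gene called on these lists; it fell by 1.14 ± 0.20 (adjusted p = 0.0224), with 172.2 and 131.4 CPM in KO, against 328.7 and 340.6 CPM in WT.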

How the data were processed

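RNA of 12 libraries was measured as whole-number read counts per gene, which the authors deposited as 1 table. Per the labels' protocols, cells were sorted into lysis buffer and RNA was made into stranded SMART-Seq libraries. Per the submitters' processing notes, bcl2fastq and STAR 2.6.1a were used with GRCm38; the sources used here do not name the counting program or strand setting. Of the 55421 identifiers, 99.7% were found in GENCODE M21, and 27 symbols stored as numbers or dates were restored through their identifiers.

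The tests used edgeR 4.0.16 under R 4.3.3 (filterByExpr, TMM factors and a quasi-likelihood fit of 6 groups, with 6 residual degrees of freedom and 11.9 from the prior at the median). The fit was also run on simulated counts with the same spread beyond counting error for every gene. That run does not cover the uneven spread between replicates in these libraries. All p-values are two-sided and adjusted within a comparison, in the main fit over 14460 genes. The filter was applied anew in most alternatives, so their adjusted p rest on other numbers of genes. Fits without a library tested 15706 to 16148 genes and the fit with no filter 32855. A call lost or gained there can thus also reflect the set of genes tested. CPM are counts over the TMM-scaled library size. Promoter windows came from RefSeq. Members, lists and alternatives were chosen with earlier results of these data known, as were the means over genotypes and the cell division term, added later. Srebf1, Srebf2, Scap, Insig1, Scd1, Scd2, Fasn and Acaca were given by library. Other members called in a comparison were given by library at least for the groups of that comparison. On other lists, up to 4 called genes were named. Marker lists of other cell types were summed, and those beside a result are given. Alternatives were DESeq2 1.42.0, other factors and filters, fits of the compared groups alone, a replicate block, B cell and cell division terms and leaving out each library. No library was left out of the main values.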

Additional observations from a re-analysis of the deposited data

How the results depend on the processing

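The count of the 29 genes called in KO against WT stayed at 0 under every alternative in MPEC and for the mean, and was 1 in SLEC day 14 with no filter on low counts and with at least 10 counts in every library of a group, the gene being Scd1. For day 14 against day 7 in KO SLEC the count was 5, and 2 with a cell division term. In WT SLEC it was 4, and 2 with DESeq2, 0 with only the groups compared, 0 with a B cell term and 1 with the cell division term. For MPEC against SLEC in KO it was 2, and 0 with the B cell term. In WT it was 1, and 0 with DESeq2, 2 with only the groups compared, 0 with the replicate block, 0 with the B cell term and 2 with the cell division term. For the day effect averaged over genotypes it was 9, and 3 with the B cell term and 2 with the cell division term. The cause of these changes was not tested. Leaving out each library in turn, with a lone sample assumed to vary like the other groups, gave 0 to 1 for KO against WT in SLEC day 7, 0 to 1 in SLEC day 14, 0 to 0 in MPEC and 0 to 0 for the mean. It gave 1 to 9 for the day effect in KO, 1 to 8 in WT and 6 to 12 for the mean, 0 to 3 for the population effect in KO, 0 to 3 in WT and 2 to 4 for the mean, and 0 to 1 and 0 to 0 for the differences of the KO effect.

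The cell division sum separated day 7 from day 14 without overlap, and with it as a term all genes called by day fell to 196 in KO and 243 in WT, against 2487 and 1437 without it; with the B cell term 190 were called in WT. No direction is read from the term. With it these log2 changes were positive: on day 14 against day 7 in KO SLEC, Pmvk 1.34, Cyp51 0.45 and Scd2 2.09; in WT SLEC, Hmgcs1 0.10, Cyp51 0.51 and Scd2 2.33; averaged, Hmgcs1 0.31, Pmvk 1.47, Sqle 1.35, Cyp51 0.48, Srebf2 0.74 and Scd2 2.21; and Scd1 in KO against WT SLEC day 7, 5.01. Of these, the day changes of Scd2 in KO, in WT and averaged were called (adjusted p = 0.039, 0.01 and 0.012). With the B cell term the WT day change of Scd1 was -0.45. Leaving out a library, Scd1 in KO against WT SLEC day 7 ranged from -7.52 (without KO SLEC day 7 replicate 1) to 4.85 (without WT SLEC day 7 replicate 2). The day change of Scd2 ranged from -0.93 to 0.98 in WT and from -0.87 to 0.09 averaged, without WT SLEC day 7 replicate 1 and replicate 2 in that order. The genes called among all tested also moved: in KO against WT SLEC day 14 there were 79, and between 5 and 506 under the other settings. Over 15 pairs of groups the correlations of replicate differences ran from -0.133 to 0.117. Low correlations cannot show that samples are unpaired, so whether replicate numbers pair the samples is not known. With the replicate block the counts were 4 and 3 for the day effect in KO and WT. Depth limits the genes with few counts, Idi1, Fdps and Scd1 in KO.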

Other observations

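In WT SLEC day 7 the replicates differed more in the lipid synthesis genes than in other genes. The median absolute log2 difference between replicate 1 and replicate 2 was 0.67 over the 29 genes and 0.39 over all genes tested, and 25 of the 29 were lower in replicate 1, as were 49.4% of all genes. In the other 5 groups the median over the 29 genes was 0.19 to 0.28. Shifts to one side also occurred there: replicate 1 was lower for 6 of the 29 in KO SLEC day 7 (46.7% of all genes) and 21 in KO MPEC day 14 (49.7%). It was lower for 17 in KO SLEC day 14 (47.7%), 12 in WT SLEC day 14 (48.3%) and 17 in WT MPEC day 14 (50%).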
